A study of Mus musculus with 2 samples.

Results

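Granzymes and perforin are the proteins with which cytotoxic lymphocytes kill their targets, and the 10 genes described here are Gzma, Gzmb, Gzmc, Gzmd, Gzme, Gzmf, Gzmg, Gzmk, Gzmm and Prf1, chosen by symbol from 32285 genes counted in each library. They were read in CD45+ leukocytes sorted from tumours grown under the skin from B16F10-OVA, melanoma cells of the mouse with ovalbumin as a model antigen. The treated mice received UDSP-Hep, an agent the labels name without describing, and the control mice received PBS, a saline buffer. Injections were given on days 10, 12, 14 and 16 after the tumour cells, and tumours were taken on day 19. Cells of 3 tumours per group were combined in 1 droplet (10x Genomics) library, so each group had 1 library, no difference between groups has a replicate check and no p-value is given. Strain, sex and age of the mice are not given in the sources used here.

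Perforin, the product of Prf1, forms pores in the target cell membrane through which granzymes, serine proteases stored in the same secretory granules, reach the cytosol. Granzyme B cleaves caspases and their substrates, granzyme A is a tryptase-like protease linked to other forms of cell death and to inflammation, and granzymes K and M have tryptase-like and methionine-directed specificities. The mouse genome also carries a run of genes next to Gzmb, from Gzmc to Gzmg, which are known from activated T cells and NK cells of the mouse.

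After filtering, the UDSP-Hep library held 7195 cells and 55906161 UMIs (unique molecular identifiers, each counting 1 captured RNA molecule), and the PBS library held 6717 cells and 66064402 UMIs. Median depth was 5482 UMIs per cell in UDSP-Hep and 7867 UMIs in PBS, and 25 cell barcodes occurred in both libraries. Cells were gated on marker genes that include none of the 10 genes. The NK gate held 1455 UDSP-Hep and 462 PBS cells, the CD8 T gate 453 and 562, the CD4 T gate 215 and 98, the regulatory T (Treg) gate 251 and 191, and the gamma-delta T gate 104 and 103. The myeloid gate held 3192 and 3513 cells, and its macrophage-monocyte part of 2230 and 2740 cells served as the level expected of cells that should lack these genes. By the way the gates were set, the summed Cd3e, Cd3d and Cd3g level was 14.5 CPM (UMIs per 1000000 UMIs of the gate) in UDSP-Hep and 10.2 CPM in PBS NK cells, against 1726 CPM and 1901 CPM in CD8 T cells. NK marker UMIs were present in every T cell gate and are given beside the results they moved with. The 7 neutrophil markers summed to 46.7 to 80.8 CPM in the 5 lymphocyte gates of UDSP-Hep and to 9.76 to 32.2 CPM in those of PBS, and their part in the results was not tested. Of lists that no lymphocyte gate used, the 9 conventional dendritic cell markers, which include the MHC class II genes H2-Ab1 and Cd74, summed to 1781 CPM in UDSP-Hep and 4378 CPM in PBS NK cells. The 4 markers of type 2 innate lymphoid cells, among them Gata3 and Il1rl1, which T cells can also express, summed to 1240 CPM and 363 CPM in CD4 T cells and to 1131 CPM and 420 CPM in Treg cells. The part of these lists in the results was not tested.

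Of the 10 genes, 6 lie on the minus strand of chromosome 14 (GRCm38, the assembly that mm10 names) in a stretch of 144635 bases with a seventh granzyme gene, Gzmn. Gzme lies at chr14:56117626-56120625, Gzmd at chr14:56129556-56132608, Gzmg at chr14:56156582-56159579, Gzmf at chr14:56205263-56211417, Gzmc at chr14:56231441-56234656 and Gzmb at chr14:56258838-56262260. Gzma (chr13:113093825-113100981) and Gzmk (chr13:113171608-113225908) are neighbours on chromosome 13. Prf1 (chr10:61297833-61304680) and Gzmm (chr10:79689020-79695261) lie far apart on chromosome 10. All 10 are annotated as protein-coding.

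The promoters of the array genes Gzmc to Gzmg are shown because most UMIs of these genes lay in few cells, as described further on. Many NK and CD8 T cells with a UMI of these genes had a UMI of only 1 of them, in both libraries. Whether the genes share regulation was not tested. The windows hold 120 bases around and before the RefSeq start sites (GRCm38.p6), 5′ to 3′ on the minus strand of chromosome 14, with the 8 bases at the site of a cAMP-response-element-like word in capitals.
Gzmc: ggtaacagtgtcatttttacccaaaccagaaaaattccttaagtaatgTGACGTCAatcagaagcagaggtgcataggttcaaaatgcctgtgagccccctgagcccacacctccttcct
Gzmd: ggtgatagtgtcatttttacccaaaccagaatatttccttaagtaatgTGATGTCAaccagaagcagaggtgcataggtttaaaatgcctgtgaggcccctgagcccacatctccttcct
Gzme: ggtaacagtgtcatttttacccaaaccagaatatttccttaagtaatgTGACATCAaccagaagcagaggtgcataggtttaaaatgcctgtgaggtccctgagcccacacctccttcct
Gzmf: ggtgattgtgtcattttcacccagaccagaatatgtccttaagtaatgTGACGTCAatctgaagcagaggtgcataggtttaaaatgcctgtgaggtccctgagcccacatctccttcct
Gzmg: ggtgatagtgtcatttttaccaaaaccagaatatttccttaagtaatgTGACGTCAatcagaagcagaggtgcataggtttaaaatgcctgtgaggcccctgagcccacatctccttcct

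The 5 windows were identical at 103 of 120 positions (85.8%), and the longest run shared by all 5 was 20 bases, just after the capitals. The closest pair was Gzmd and Gzmg, with 97.5% of bases the same, and the most distant was Gzmc and Gzmf, with 89.2%. The palindrome TGACGTCA was in the Gzmc, Gzmf and Gzmg windows, and 588 of 32851 RefSeq mouse promoters of 300 bases (1.79%) hold it. Its first base lay 57 bases before the start in Gzmc, 82 in Gzmf and 77 in Gzmg, while Gzmd and Gzme each carry an altered word at 61 and 62 bases before theirs. The shorter word TGACG, searched on both strands and contained in the palindrome, was in 6837 promoters (20.8%), among them those of Gzmb and Prf1. These matches describe letters only.

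Likeness between the transcripts of this array bears on how far their UMIs can be told apart. Over the longest annotated transcripts, Gzmd and Gzme shared 95.0% of aligned bases. Stretches of 90 bases found also in another array gene made up 2.17% of Gzmd, 0.967% of Gzme and 1.59% of Gzmg, and none of the other members. Values of Gzmd, Gzme and Gzmg are therefore less certain than those of the other genes.

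Gzma was by level an NK cell gene in both libraries. NK cells held 69834 Gzma UMIs in UDSP-Hep and 31274 in PBS, which is 9703 CPM (9632 to 9776) and 11779 CPM (11649 to 11910). Brackets give exact 95% intervals that cover counting error only. The ratio of UDSP-Hep over PBS was 0.824 (0.813 to 0.835), inside the 1.5-fold limit used here to call a difference, and a Gzma UMI was found in 95.9% and 93.5% of NK cells. Thinned to 1000 UMIs per cell, 92.9% of UDSP-Hep and 90.3% of PBS NK cells kept one, so nearly every gated NK cell carried the transcript. The few cycling NK cells were 50 in UDSP-Hep (3.44% of the gate) and 22 in PBS (4.76%). They held 4185 CPM and 9180 CPM of Gzma, a ratio of 0.456 (0.434 to 0.479), and 1 cell held 647 of the 3368 PBS UMIs. Noncycling NK cells held 10282 CPM and 12195 CPM. T cells that fell in none of the 4 T cell gates came next, at 1044 CPM in UDSP-Hep and 877 CPM in PBS. Lower still, gamma-delta T cells stood at 447 CPM and 552 CPM, and their ratio was 0.810 (0.686 to 0.956), with 0.298 to 1.14 over the other settings. Within that gate, cells with at least 2 UMIs of NK markers held 803 CPM and 1133 CPM, and the rest 20.4 CPM and 61.8 CPM.

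CD8 T cells, which recognise antigen on MHC class I, carried Gzma at 582 CPM (557 to 607) in UDSP-Hep and 159 CPM (150 to 169) in PBS. The ratio was 3.66 (3.40 to 3.94), past the 1.5-fold limit. A Gzma UMI was found in 35.5% (31.1 to 40.1%) of UDSP-Hep and 19.2% (16.0 to 22.7%) of PBS CD8 T cells, although median depth was lower in UDSP-Hep, at 5761 UMIs against 8492.5 UMIs in PBS. At 1000 UMIs per cell the shares were 17.5% (14.1 to 21.3%) and 6.58% (4.68 to 8.96%). Macrophages and monocytes, where the gene is taken as background, had a Gzma UMI in 23.0% and 7.19% of cells at median depths of 8460 and 8718.5 UMIs. After thinning those background shares were 2.73% and 1.03%, and their level was 29.1 CPM and 8.30 CPM, well below CD8 T cells in both libraries.

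The higher Gzma level in CD8 T cells of the UDSP-Hep library was seen in each kind of CD8 T cell that the markers set apart. A minority of cells carried most of it. The richest 10% of CD8 T cells held 87.9% of the Gzma UMIs in UDSP-Hep and 95.4% in PBS. Cycling cells, with at least 2 UMIs of cell division genes, held 474 CPM in UDSP-Hep and 131 CPM in PBS, a ratio of 3.63 (3.20 to 4.11). Noncycling cells held 620 CPM and 204 CPM, a ratio of 3.03 (2.75 to 3.35). Among noncycling cells, those with more UMIs of exhaustion genes such as Pdcd1 and Havcr2 had a ratio of 3.40 (2.91 to 3.98). Those with more UMIs of memory genes such as Tcf7 and Il7r had a ratio of 2.43 (2.11 to 2.82). NK marker UMIs also moved: the 8 NK markers summed to 616 CPM in UDSP-Hep and 497 CPM in PBS CD8 T cells, with none at 0 in either library. In CD8 T cells with 0 UMIs of the NK gate genes, Gzma was still at 559 CPM in UDSP-Hep and 102 CPM in PBS, a ratio of 5.46 (4.79 to 6.23).

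CD4 T cells without Foxp3, the helper lineage, held 211 Gzma UMIs in UDSP-Hep and 10 in PBS. That is 159 CPM (139 to 182) and 15.3 CPM (7.35 to 28.2), a ratio of 10.4 (5.54 to 22.0). The interval of the PBS level included the 8.30 CPM of macrophages and monocytes, and 28.9% of the UDSP-Hep UMIs came from 1 cell. A Gzma UMI was found in 22.8% of UDSP-Hep and 6.12% of PBS cells, at median depths of 4517 and 4936.5 UMIs. At 1000 UMIs per cell, 7.91% (4.67 to 12.4%) of UDSP-Hep and 1.02% (0.0258 to 5.55%) of PBS cells had a Gzma UMI. The NK marker sum was 152 CPM and 147 CPM in these gates, while the markers of type 2 innate lymphoid cells summed to 1240 CPM and 363 CPM, and their part in the Gzma difference was not tested. In Treg cells Gzma was at 137 CPM in UDSP-Hep and 85.2 CPM in PBS, a ratio of 1.60 (1.33 to 1.94), but single cells held 45.1% and 40.2% of these UMIs. The ratio was 4.30 (3.09 to 6.12) in cycling and 0.654 (0.498 to 0.859) in noncycling Treg cells, and 0.535 after thinning.

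**Figure D1:**
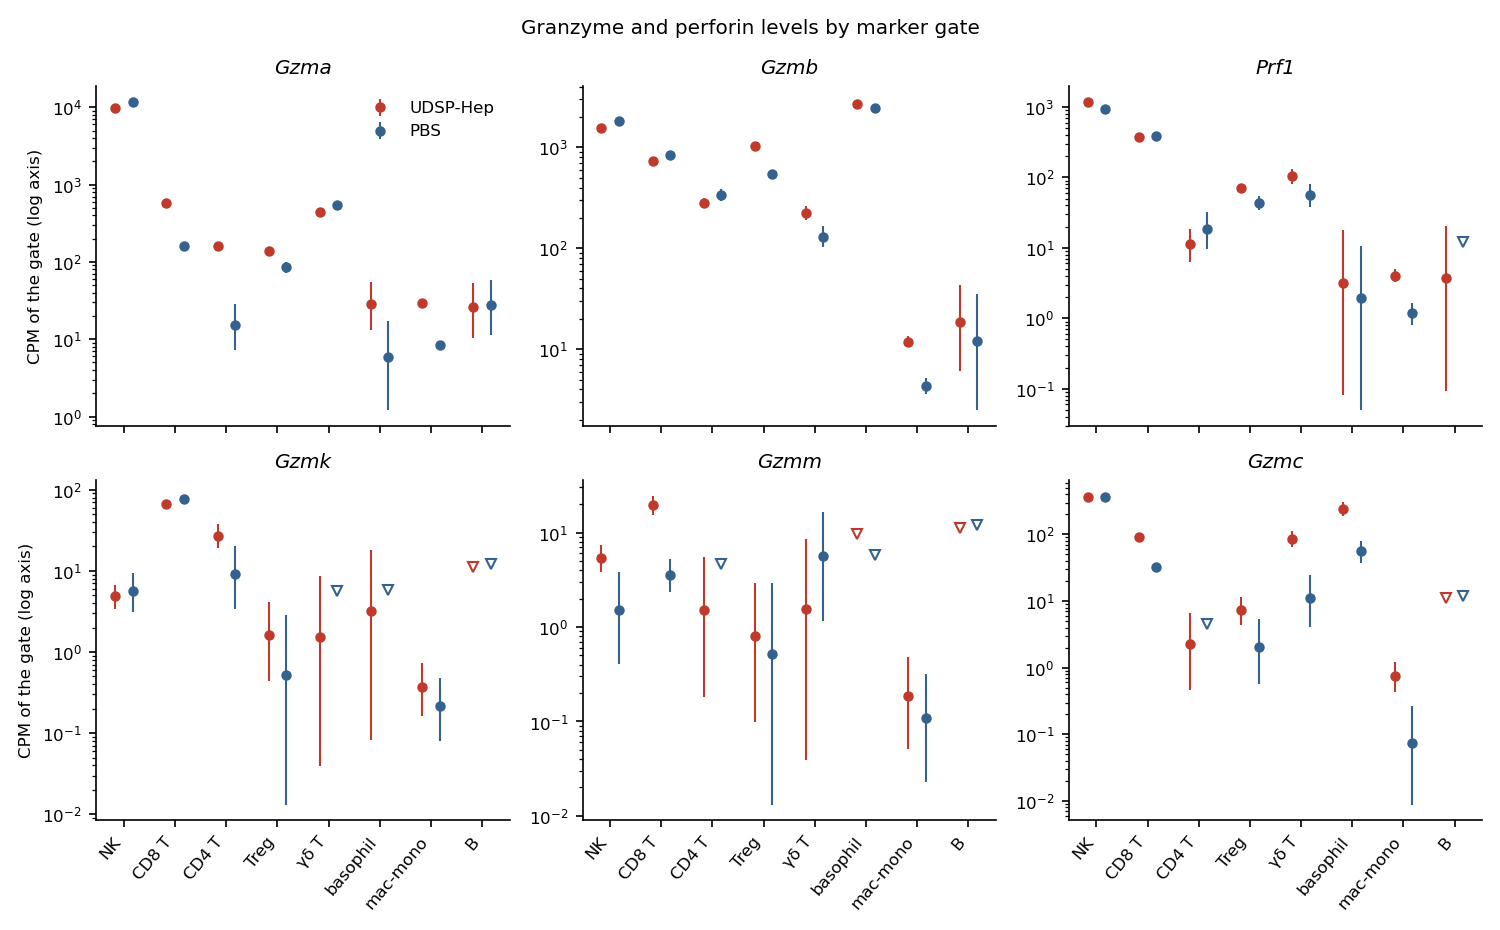
Level of 6 of the genes in each gate, in CPM of the gate on a log axis, with UDSP-Hep in red left of PBS in blue. Bars are exact Poisson 95% intervals of the counting error, and open triangles mark gates with 0 UMIs, drawn at the level of 3 UMIs. Gzma was highest in NK cells (9703 and 11779 CPM), Gzmb in basophils (2664 and 2483 CPM) and Gzmk in CD8 T cells (66.7 and 77.9 CPM).

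Gzmb was spread over more cell types than Gzma. NK cells held 1554 CPM (1526 to 1583) in UDSP-Hep and 1812 CPM (1761 to 1864) in PBS, a ratio of 0.858 (0.829 to 0.888). CD8 T cells held 736 CPM and 838 CPM, a ratio of 0.878 (0.838 to 0.920). Neither passed the 1.5-fold limit, and at 1000 UMIs per cell 60.6% and 57.0% of NK cells and 27.7% and 34.5% of CD8 T cells had a Gzmb UMI. Before thinning a Gzmb UMI was found in 83.2% and 78.8% of NK cells, 48.8% and 64.1% of CD8 T cells, and 10.4% and 4.09% of macrophages and monocytes.

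The Gzmb level of CD8 T cells was also read in cycling and noncycling cells. Cycling cells were 12.1% (9.28 to 15.5%) of UDSP-Hep and 39.7% (35.6 to 43.9%) of PBS CD8 T cells, and held 26.4% and 61.9% of the UMIs of the gate. After thinning to 1000 UMIs, 8.85% (6.40 to 11.9%) of UDSP-Hep and 27.0% (23.4 to 30.9%) of PBS CD8 T cells had a UMI of the cell division genes. In cycling CD8 T cells Gzmb was at 1432 CPM in UDSP-Hep and 949 CPM in PBS, a ratio of 1.51 (1.42 to 1.60). In noncycling CD8 T cells it was at 486 CPM and 658 CPM, a ratio of 0.739 (0.687 to 0.795). Prf1 stood at 691 CPM in UDSP-Hep and 436 CPM in PBS cycling cells, a ratio of 1.59 (1.45 to 1.73), and at 270 CPM and 319 CPM in noncycling cells, a ratio of 0.846 (0.765 to 0.936). Both cycling values rested in part on 1 of the 55 UDSP-Hep cells: without it the ratio was 1.39 for Gzmb and 1.48 for Prf1, both within the limit. With the PBS cell richest in array UMIs left out as well, the ratios were 1.43 and 1.55. Exhaustion-leaning cells were 29.1% of noncycling CD8 T cells in UDSP-Hep and 47.8% in PBS, and within them Gzmb was nearly level, at 941 CPM and 951 CPM. Memory-leaning cells held less of it, at 220 CPM and 246 CPM. The Gzmb ratio also depended on NK marker UMIs: in CD8 T cells with 0 of them it was 0.498 (0.457 to 0.542), at 431 CPM in UDSP-Hep and 866 CPM in PBS, and in those with at least 2 it was 1.22 (1.15 to 1.30), at 1044 CPM and 855 CPM.

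Treg cells, which restrain other T cells, carried Gzmb at 1032 CPM (992 to 1073) in UDSP-Hep and 549 CPM (516 to 583) in PBS. The ratio was 1.88 (1.75 to 2.02), past the limit. A Gzmb UMI was found in 69.7% of UDSP-Hep and 66.0% of PBS Treg cells. At 1000 UMIs per cell, 42.0% (35.8 to 48.4%) of UDSP-Hep and 30.9% (24.4 to 38.0%) of PBS Treg cells had a Gzmb UMI, at median depths of 6779 and 6674 UMIs. The ratio was 1.93 (1.66 to 2.25) in cycling Treg cells, at 590 CPM in UDSP-Hep and 305 CPM in PBS, and 1.88 (1.73 to 2.04) in noncycling ones, at 1343 CPM and 715 CPM. The NK marker sum was 106 CPM in UDSP-Hep and 52.0 CPM in PBS Treg cells (the type 2 innate lymphoid markers moved too), and in Treg cells with 0 UMIs of the NK gate genes the Gzmb ratio was 1.92. With cells carrying marker UMIs of other lineages left out, the ratio was 1.04, within the limit. Helper CD4 T cells held 282 CPM of Gzmb in UDSP-Hep and 340 CPM in PBS, a ratio of 0.828 that turned to 1.67 with those cells left out and to 1.52 under stricter gates.

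Gamma-delta T cells, which recognise antigens without classical MHC presentation, held 226 CPM (191 to 265) of Gzmb in UDSP-Hep and 130 CPM (102 to 165) in PBS. The ratio was 1.73 (1.29 to 2.34) on 146 and 70 UMIs. Basophils, granulocytes known for IgE-driven release of mediators, had the highest Gzmb level of all gates, at 2664 CPM (2486 to 2852) in 56 UDSP-Hep cells and 2483 CPM (2349 to 2623) in 106 PBS cells. Their ratio was 1.07 (0.982 to 1.17). By the way the basophil gate was set, NK markers were nearly absent from it, at 2 and 3 UMIs in all. Prf1, which no gate used, stood at 1 UMI in basophils of each library, so these cells carried Gzmb transcripts almost without perforin transcripts.

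Prf1, which encodes the pore-forming protein, was likewise highest in NK cells, at 1174 CPM (1149 to 1200) in UDSP-Hep and 924 CPM (888 to 961) in PBS. The ratio of 1.27 (1.21 to 1.33) stayed within the 1.5-fold limit. A Prf1 UMI was found in 89.1% of UDSP-Hep and 83.3% of PBS NK cells, against 3.59% and 1.13% of macrophages and monocytes. At 1000 UMIs per cell, 63.5% (61.0 to 66.0%) of UDSP-Hep and 56.4% (51.7 to 61.0%) of PBS NK cells had a Prf1 UMI. With 381 CPM and 391 CPM, CD8 T cells came next, and their ratio of 0.975 (0.913 to 1.04) was close to 1. In gamma-delta T cells Prf1 was at 104 CPM and 55.9 CPM, and their ratio was 1.85 (1.19 to 2.95) on 67 and 30 UMIs. Cells with at least 2 NK marker UMIs were 47.1% of the UDSP-Hep and 35.0% of the PBS gate, and the ratio was 1.92 in them and 1.19 (0.470 to 3.07) in the rest. It was 1.05 in cells from clusters of the same lineage and stayed past the limit under 9 of 14 settings. Treg cells held 70.1 CPM and 43.7 CPM, a ratio of 1.61 (1.23 to 2.11), which was 1.02 in Treg cells with 0 NK marker UMIs and stayed past the limit under 8 of 15 settings. The CD4 T level rested on 15 UMIs in UDSP-Hep and 12 in PBS, and its ratio of 0.616 (0.269 to 1.44) has an interval on both sides of 1 and turned to 1.38 when doublets were kept.

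**Figure D2:**
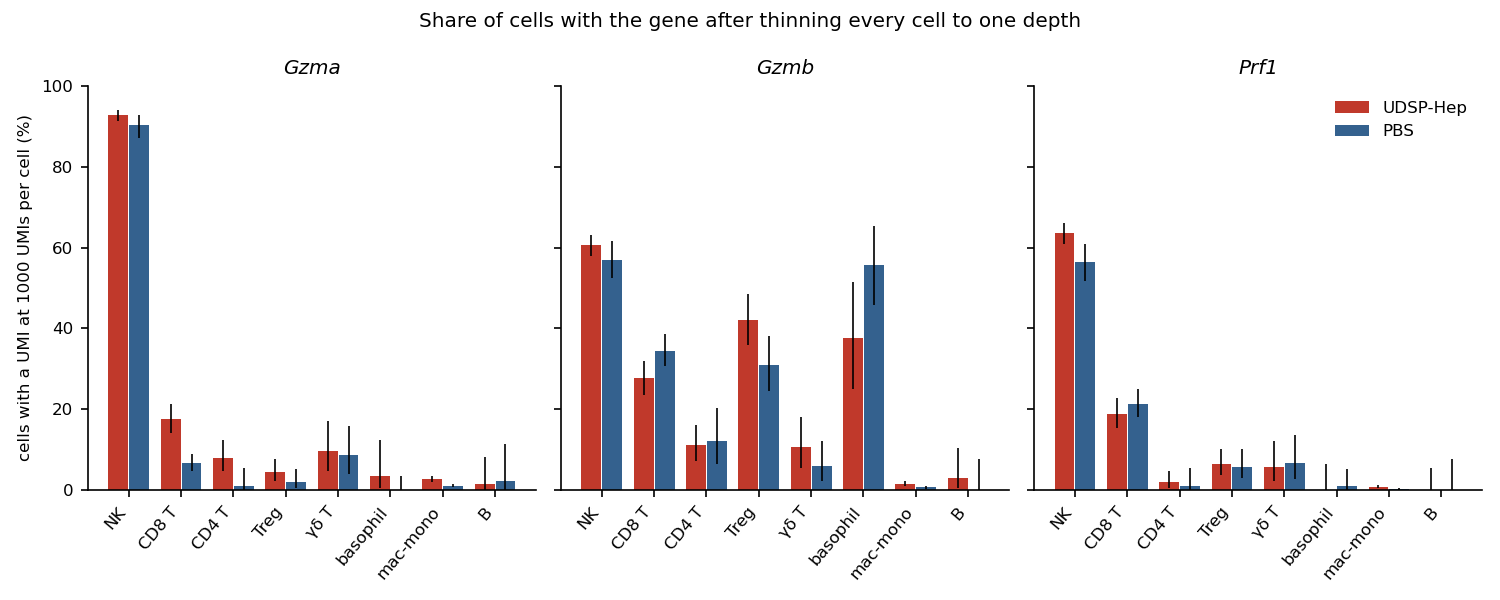
Share of cells with at least 1 UMI of Gzma, Gzmb or Prf1 after every cell was thinned to 1000 UMIs, in percent, by gate, with UDSP-Hep in red left of PBS in blue. Bars start at 0 and black lines are exact binomial 95% intervals of the counting error. Gzma was found in 17.5% of UDSP-Hep and 6.58% of PBS CD8 T cells, and Gzmb in 42.0% of UDSP-Hep and 30.9% of PBS Treg cells.

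Gzmk, a tryptase-like granzyme known from memory and exhausting CD8 T cells, was a CD8 T cell gene in both libraries. It stood at 66.7 CPM (58.6 to 75.7) in UDSP-Hep and 77.9 CPM (71.5 to 84.8) in PBS CD8 T cells, a ratio of 0.856 (0.733 to 0.999), and 25.4% and 33.6% of them had a UMI, or 7.52% and 7.12% at 1000 UMIs per cell, against 0.314% and 0.219% of macrophages and monocytes before thinning. Memory-leaning noncycling cells held 45.6 CPM in UDSP-Hep and 23.9 CPM in PBS, whereas exhaustion-leaning ones held 73.4 CPM and 102 CPM. CD4 T cells held 36 Gzmk UMIs in UDSP-Hep and 6 in PBS, or 27.2 CPM and 9.19 CPM, a ratio of 2.96 (1.23 to 8.59). NK cells were low, at 4.86 CPM and 5.65 CPM.

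Gzmm, whose product prefers methionine in its substrates, was the sparsest of the 10 genes, at 141 UMIs in all UDSP-Hep cells and 42 in all PBS cells. In CD8 T cells it stood at 19.5 CPM (15.2 to 24.6) in UDSP-Hep and 3.59 CPM (2.32 to 5.30) in PBS, a ratio of 5.42 (3.39 to 8.94) on 70 and 25 UMIs. Memory-leaning noncycling cells held 59 of these UMIs in UDSP-Hep and 8 in PBS, at 36.3 CPM and 7.36 CPM, and were 62.8% and 47.5% of noncycling CD8 T cells. In NK cells 39 UDSP-Hep UMIs and 4 PBS UMIs gave 5.42 CPM and 1.51 CPM, a ratio of 3.60 (1.30 to 13.9). A Gzmm UMI was found in 1.92% and 0.866% of NK cells.

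The array genes Gzmc to Gzmg, which encode further granzymes beside granzyme B, were not detected in most cytotoxic cells. Of NK cells, 94.8% in UDSP-Hep and 95.5% in PBS had no UMI of any of the 5, and of CD8 T cells 94.9% and 91.1% had none. The transcripts sat in a small number of cells instead. In UDSP-Hep, 33 cells with at least 20 UMIs of these genes held 5710 of 6108 array UMIs (93.5%) and were 0.459% of kept cells. In PBS, 18 such cells held 3336 of 3660 (91.1%) and were 0.268% of kept cells. These cells were deep, with medians of 12839 UMIs in UDSP-Hep and 16133.5 UMIs in PBS, against 5482 and 7867 UMIs over all kept cells. Of the 33 UDSP-Hep cells, 20 were in the NK gate, 8 in the CD8 T gate, 2 were basophils, 1 was in the gamma-delta T gate, 1 was a neutrophil and 1 was ungated. Of the 18 PBS cells, 7 were in the NK gate and 11 in the CD8 T gate.

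**Figure D3:**
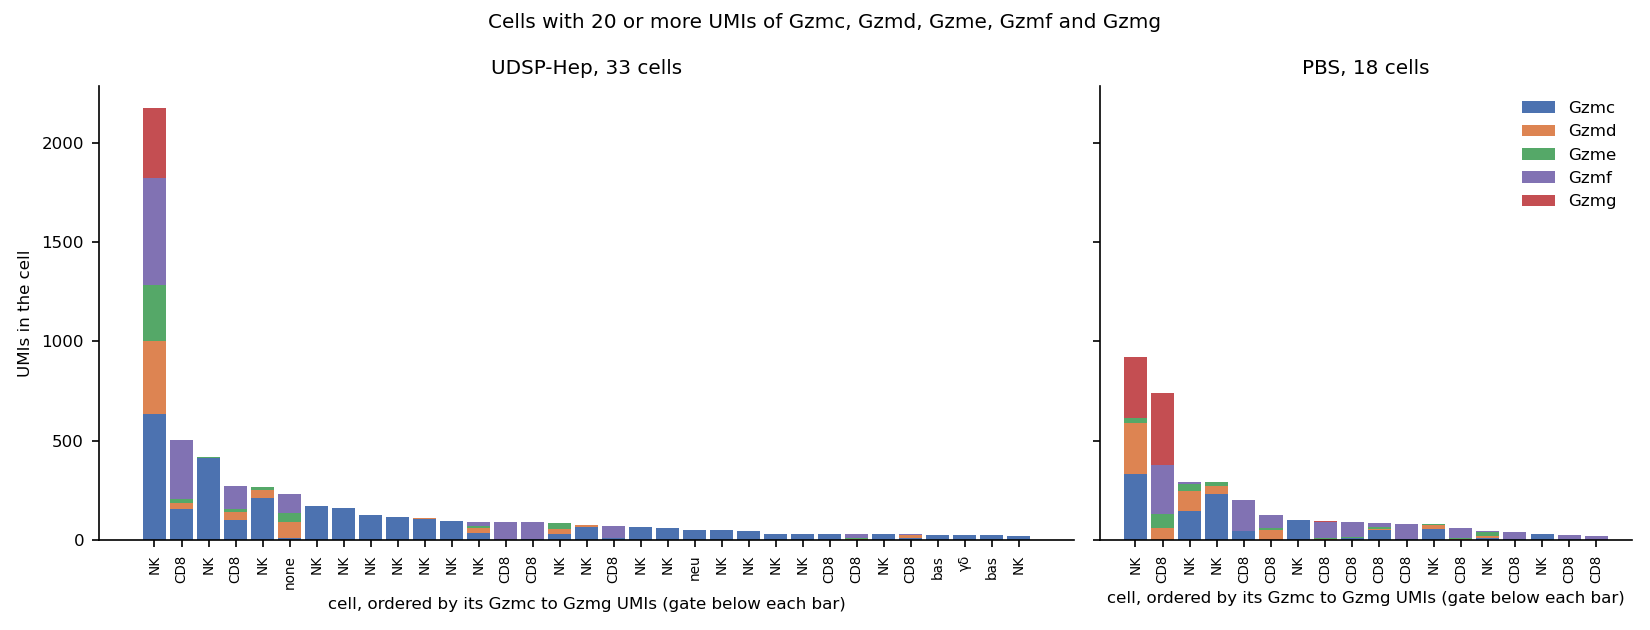
UMIs of Gzmc, Gzmd, Gzme, Gzmf and Gzmg, stacked, in each cell with at least 20 of them, for UDSP-Hep (33 cells, left) and PBS (18 cells, right), on 1 common axis. The gate of each cell stands below its bar (neu, neutrophil; bas, basophil; none, ungated). NK cells carried mostly Gzmc and CD8 T cells mostly Gzmf, and Gzmg rested on 1 UDSP-Hep and 2 PBS cells.

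Single cells set the level of several array genes. The highest UDSP-Hep cell, an NK cell with 48563 UMIs, held 637 UMIs of Gzmc, 363 of Gzmd, 286 of Gzme, 535 of Gzmf and 356 of Gzmg. The highest PBS cell, an NK cell with 22671 UMIs, held 333 UMIs of Gzmc, 255 of Gzmd, 29 of Gzme, 0 of Gzmf and 307 of Gzmg. Both were also rich in the common granzymes, with 398 Gzma and 337 Gzmb UMIs in the UDSP-Hep cell and 553 Gzma and 369 Gzmb UMIs in the PBS cell. A PBS CD8 T cell of 12034 UMIs held 364 Gzmg and 249 Gzmf UMIs with 1 Gzmc UMI and 0 Gzma UMIs. A UDSP-Hep CD8 T cell of 30189 UMIs held 294 Gzmf and 156 Gzmc UMIs and no Gzmg.

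Read against those cells, the gate levels were as follows. In NK cells Gzmc stood at 367 CPM in UDSP-Hep and 358 CPM in PBS, a ratio of 1.02 (0.951 to 1.10) that was 0.418 with cells carrying marker UMIs of other lineages left out. Gzme stood at 47.8 CPM and 40.7 CPM, with 83.1% of the UDSP-Hep UMIs in 1 cell, and its ratio of 1.18 was 0.286 without the top cell of each library. Gzmf stood at 78.4 CPM and 6.40 CPM, a ratio of 12.2 (7.58 to 21.2), but 94.9% of the 564 UDSP-Hep UMIs were in 1 cell, and the ratio was 0.618 when cells with marker UMIs of other lineages were left out. Gzmd stood at 66.0 CPM and 160 CPM, a ratio of 0.413 (0.362 to 0.472), with 76.4% of the UDSP-Hep and 60.1% of the PBS UMIs in 1 cell each. Gzmg stood at 49.6 CPM and 116 CPM, a ratio of 0.429 (0.367 to 0.501), with 356 of 357 UDSP-Hep UMIs and all 307 PBS UMIs in 1 cell each. The share of NK cells with a Gzmc UMI was 4.67% (3.65 to 5.89%) in UDSP-Hep and 4.33% (2.66 to 6.61%) in PBS.

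In CD8 T cells Gzmc stood at 92.3 CPM in UDSP-Hep and 31.9 CPM in PBS, a ratio of 2.90 (2.44 to 3.45), while a Gzmc UMI was found in fewer UDSP-Hep cells, 3.31% (1.86 to 5.40%) against 6.94% (4.98 to 9.36%) in PBS. A single cell held 47.0% of the UDSP-Hep UMIs, and the ratio turned to 0.499 without the top 1% of cells and to 0.402 in cells with 0 NK marker UMIs. Gzmf stood at 189 CPM and 132 CPM, a ratio of 1.43 (1.29 to 1.58), and in cycling CD8 T cells at 468 CPM and 83.3 CPM, a ratio of 5.62 (4.88 to 6.48). There 1 cell held 294 of the 445 UDSP-Hep UMIs, and without it the ratio was 1.97. With the PBS cell richest in array UMIs left out as well, it was 3.40. Of the 151 UDSP-Hep UMIs left, single cells held 84 and 60. In noncycling CD8 T cells Gzmf stood at 89.2 CPM and 212 CPM, a ratio of 0.420 (0.359 to 0.490). Single cells held 115 of the 236 UDSP-Hep and 249 of the 564 PBS UMIs there. The direction of Gzmf in either part of the gate thus rested on few cells. Gzmg had 0 UMIs in 453 UDSP-Hep CD8 T cells, which allows a share of cells with a UMI, not of cells expressing the gene, of up to 0.662% (3 cells of the total), and 367 UMIs in PBS. With 3 UMIs in place of 0 it was at least 63.3-fold lower, yet 364 of the PBS UMIs came from 1 cell.

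Within the NK gate, most UMIs of the array genes lay in cells with Itga1. This gene encodes an integrin chain known from tissue-resident NK cells and type 1 innate lymphoid cells. NK cells with an Itga1 UMI were 10.7% of the gate in UDSP-Hep and 10.8% in PBS. Their median depths were 5550 and 5606.5 UMIs, against 3894.5 and 4111.5 UMIs in NK cells without one. Those with Itga1 held Gzmc at 1812 CPM in UDSP-Hep and 1721 CPM in PBS, against 74.8 CPM and 36.3 CPM in those without. Single cells held 637 of the 2193 UDSP-Hep and 333 of the 873 PBS Gzmc UMIs of the cells with Itga1. Gzma ran the other way, at 5881 CPM and 6369 CPM with Itga1 and 10476 CPM and 13056 CPM without. Of 8 members counted in NK cells with Itga1, Gzme, Gzmf and Prf1 were higher in UDSP-Hep and Gzmd and Gzmg lower, beside 22.3% and 12.4% of genes. Of 8 counted in NK cells without it, Gzmc and Gzmm were higher and Gzmd and Gzme lower, beside 9.14% and 6.47% of genes. Prf1 stood at 874 CPM in UDSP-Hep and 501 CPM in PBS NK cells with Itga1, a ratio of 1.74 (1.52 to 2.01), and at 1235 CPM and 1024 CPM in those without. An Itga1 UMI was found in 20 of the 33 UDSP-Hep and 8 of the 18 PBS cells rich in array UMIs, and 12 and 8 of the array-rich cells were cycling. Most array-rich cells of the CD8 T gate had no Itga1 UMI in either library. The share with Itga1 among other cells of like depth was not computed. Of NK cells with a Gzmd UMI, 78.6% in UDSP-Hep and 83.3% in PBS also had a Gzmc UMI, against 3.96% and 3.29% of the others, but they were deeper, at a median of 12226.5 against 4006 UMIs in UDSP-Hep.

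Counted over the 10 genes, the gates differed in how many members passed the 1.5-fold limit. In NK cells, where all 10 had at least 20 summed UMIs, Gzmf and Gzmm were higher in UDSP-Hep and Gzmd and Gzmg lower, beside 9.16% of 10852 counted genes higher and 7.33% lower. In CD8 T cells all 10 were counted, and Gzma, Gzmc and Gzmm were higher and Gzmg lower, beside 13.8% of genes higher and 9.90% lower. In CD4 T cells 4 were counted, with Gzma and Gzmk higher and Prf1 lower, beside 14.2% higher and 7.71% lower. In Treg cells all 4 counted members, Gzma, Gzmb, Gzmc and Prf1, were higher, beside 9.54% of genes higher and 7.33% lower. Gzmc rested there on 18 UDSP-Hep and 4 PBS UMIs, a ratio of 3.51 (1.16 to 14.3). In gamma-delta T cells 3 of 4, Gzmb, Gzmc and Prf1, were higher, beside 12.2% higher and 10.2% lower. Gzmc rested there on 56 and 6 UMIs, with 48.2% of the UDSP-Hep UMIs in 1 cell. In both gates Gzmc reached the minimum of 20 summed UMIs mostly through UDSP-Hep, where it was higher. The members left out of these counts had fewer than 20 summed UMIs in the gate.

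The median log2 ratio of the counted members was -0.09 in NK cells, where that of all counted genes was 0.06, and 0.16 in CD8 T cells, where that of all genes was 0.05. It was 0.65 against 0.06 in CD4 T cells, 0.80 against 0.03 in Treg cells and 0.84 against 0.03 in gamma-delta T cells. In cycling CD8 T cells 7 of 8 counted members were higher and none lower, beside 12.8% and 9.17% of genes. Without the UDSP-Hep cell richest in array UMIs, 3 of 8 were higher there (Gzma, Gzmd and Gzmf) and Gzme was lower, at a ratio of 0.426. That cell held 156 of 195 Gzmc and 22 of 24 Gzme UMIs. Gzmd then rested on 14 UDSP-Hep and 15 PBS UMIs, with 13 of the 14 in 1 cell. Gzme rested on 2 and 22 UMIs, with 12 of the 22 in 1 PBS cell. With the richest PBS cell left out as well, 4 of 8 were higher, with Prf1 added, and Gzme was still lower. In noncycling CD8 T cells 3 of 10 were higher (Gzma, Gzmc and Gzmm) and 4 lower (Gzmd, Gzme, Gzmf and Gzmg), beside 10.3% and 6.72% of genes. Leaving out the richest noncycling UDSP-Hep cell alone kept all these calls. Without the richest cell of each library 9 were counted in noncycling cells, with the same 3 higher and Gzmd and Gzmf lower.

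**Figure D4:**
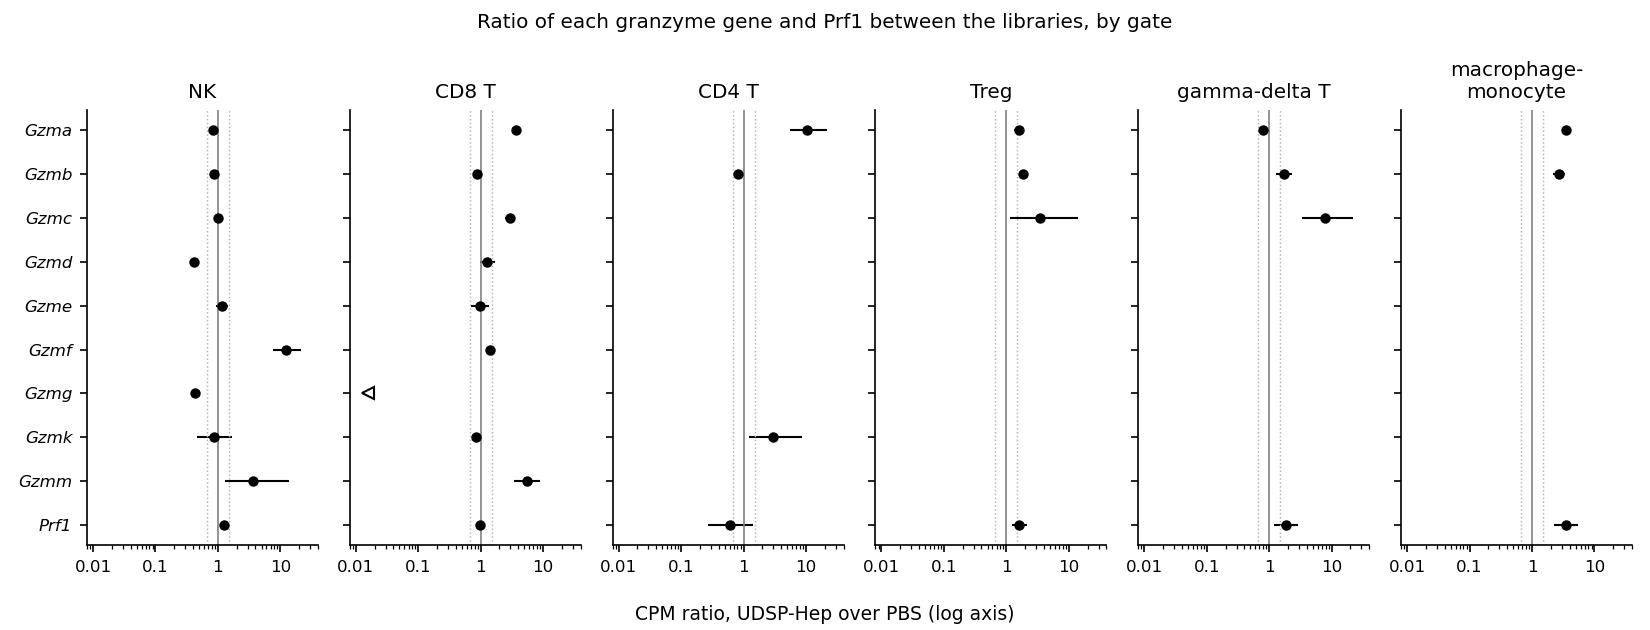
CPM ratio of UDSP-Hep over PBS for each gene with at least 20 summed UMIs in the gate, on a log axis, with exact 95% intervals of the counting error. Dotted lines mark 1.5-fold in either direction, and the open triangle is a bound drawn with 3 UMIs in place of 0. Gzma lay at 3.66 in CD8 T cells and at 0.824 in NK cells.

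In the myeloid gate Gzma, Gzmc, Gzmk and Prf1 were higher in UDSP-Hep and none lower among 5 counted, beside 9.47% and 7.60% of genes, with Gzmk on 13 and 9 UMIs only. Macrophages and monocytes held Gzma at 29.1 CPM in UDSP-Hep and 8.30 CPM in PBS, a ratio of 3.50 (3.01 to 4.10), Gzmb at 11.9 CPM and 4.35 CPM, and Prf1 at 4.04 CPM and 1.17 CPM. All 3 were higher, beside 10.3% and 5.05% of genes. The NK marker sum moved the same way in these cells, at 42.8 CPM and 28.4 CPM, and over whole libraries Gzma stood at 1418 CPM in UDSP-Hep and 539 CPM in PBS. A Gzma UMI was found in 23.0% of UDSP-Hep and 7.19% of PBS macrophages and monocytes, with a median of 1 UMI in such cells of either library. The part of free RNA in these levels was not tested.

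Which cells supplied the transcripts differed between the libraries. NK cells were 20.2% of kept cells in UDSP-Hep and 6.88% in PBS. They held 74.8% of the Prf1 UMIs of the UDSP-Hep library and 42.2% of those of the PBS library, and 52.7% and 31.4% of the Gzmb UMIs. CD8 T cells held 12.1% and 46.9% of the Prf1 UMIs, and 12.5% and 38.1% of the Gzmb UMIs. Gzma came from NK cells in both, with 88.1% and 87.8%. Treg cells held 12.0% of the Gzmb UMIs in UDSP-Hep and 6.89% in PBS. CD8 T cells held 55.3% and 83.8% of the Gzmk UMIs, and 49.8% and 97.0% of the Gzmf UMIs, the rest of Gzmf in UDSP-Hep lying mostly in the single NK cell described above.

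Over all kept cells the library levels were read without the 1.5-fold limit. Those of Gzmg (a ratio of 0.632) and Gzmk were lower in UDSP-Hep, and those of the other members higher. The ratios of Gzmk and Gzmd (1.39) lay within that limit. No share of all genes was computed for whole libraries, so these directions are not calls like those of the gates. Prf1 stood at 202 CPM in UDSP-Hep and 87.9 CPM in PBS, a ratio of 2.30 (2.23 to 2.37), although its ratio within NK cells was 1.27 and within CD8 T cells 0.975. Gzmb stood at 380 CPM and 232 CPM, a ratio of 1.64 (1.60 to 1.67). Gzmm and Gzmf, of which CD8 T cells held the most UMIs in both libraries, had ratios of 3.97 and 1.70. Gzmk, of which CD8 T cells held 55.3% and 83.8% of the UMIs, stood at 7.76 CPM and 9.81 CPM, a ratio of 0.791 (0.699 to 0.895).

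**Figure D5:**
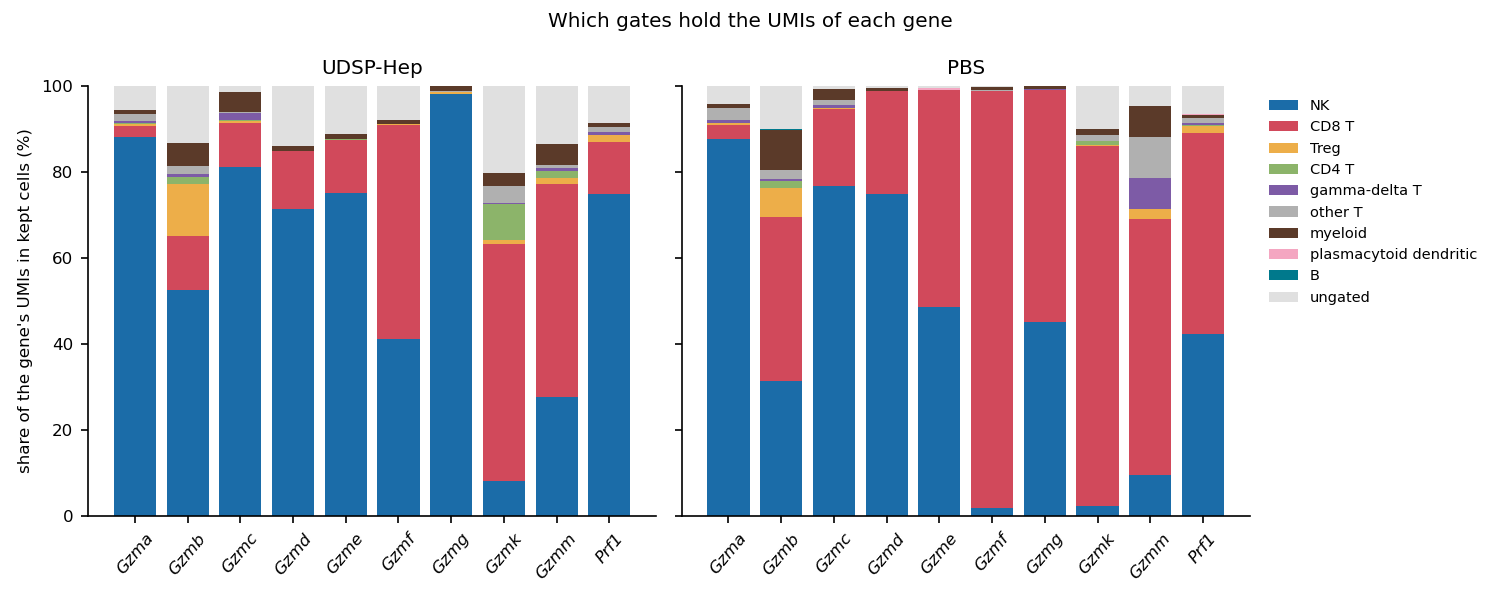
Share of each gene's UMIs in kept cells that each gate held, in percent, for UDSP-Hep (left) and PBS (right), stacked to 100. NK cells held 74.8% of Prf1 UMIs in UDSP-Hep and 42.2% in PBS, and CD8 T cells 12.1% and 46.9%.

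Genes that work with granzymes and perforin were counted from 7 lists with the same limit. Of all counted genes, 9.16% were higher and 7.33% lower in NK cells, and 13.8% and 9.90% in CD8 T cells. Of 12 genes of granule packing and processing, 1 was lower in UDSP-Hep NK cells (Ctsh, a cathepsin) and none passed the limit in CD8 T cells. Nkg7, a granule membrane protein needed for release, stood at 1780 CPM in UDSP-Hep and 1858 CPM in PBS NK cells and at 1229 CPM and 1580 CPM in CD8 T cells. Srgn, the proteoglycan that packs granzymes, stood at 921 CPM and 867 CPM in NK cells and at 939 CPM and 863 CPM in CD8 T cells. Ctsc, which trims granzymes to their active form, stood at 183 CPM and 173 CPM in NK cells and at 195 CPM and 164 CPM in CD8 T cells. Of the granule traffic and release genes, none of 14 counted passed the limit in NK cells. Higher in UDSP-Hep CD8 T cells were 2 of 15, Vamp2 and Rab44, near the share of all genes there.

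The list of serpins that block granzymes moved in part. In NK cells Serpinb9b was higher, at 244 CPM in UDSP-Hep and 139 CPM in PBS, Serpinb1a was lower on 23 and 15 UMIs with an interval on both sides of 1 (0.566, 0.283 to 1.17), and 3 of 5 were within the limit. In CD8 T cells Serpinb9, the inhibitor of granzyme B, was higher at 439 CPM in UDSP-Hep and 269 CPM in PBS, a ratio of 1.63, and Serpinb9b at 30.3 CPM and 12.6 CPM. Serpinb9 in NK cells stood at 1440 CPM and 1046 CPM, a ratio of 1.38. Of 5 death ligands and cytokines, 3 were higher in NK cells (Tnfsf10, Tnf and Lta) and 2 in CD8 T cells (Fasl and Lta), beside the 9.16% and 13.8% of all counted genes that were higher in these gates. In NK cells Tnf rested on 45 and 5 UMIs and Lta on 40 and 2, and Tnfsf10 lay at 1.51 (1.06 to 2.21). Fasl, the ligand of a death receptor, stood at 128 CPM and 73.8 CPM in CD8 T cells and at 250 CPM and 180 CPM in NK cells. Ifng, the gene of interferon-gamma, stood at 102 CPM and 129 CPM in NK cells and at 253 CPM and 242 CPM in CD8 T cells.

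Of 10 transcription factors, Irf4, which acts downstream of the T cell receptor, was higher in UDSP-Hep in both gates, with ratios of 3.01 in NK cells and 2.35 in CD8 T cells. Batf was lower in both, with ratios of 0.622 and 0.654, and the other 8 were within the limit. These counts, 1 of 10 higher and 1 lower, were near the shares of all genes in both gates. Of 9 cytokine receptor genes, Il2ra, the high-affinity subunit of the interleukin 2 receptor, was higher in both gates, at 23.5 CPM in UDSP-Hep and 7.16 CPM in PBS in NK cells. A count of 1 of 9 was also near the share of all genes. In Treg cells Il2ra stood at 1302 CPM in UDSP-Hep and 656 CPM in PBS, a ratio of 1.99 (1.86 to 2.12), beside the Gzmb ratio of 1.88 there. Of the other granzyme family genes, only Cma1 had enough UMIs in NK cells, at 115 CPM and 176 CPM.

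The genes whose levels over 22 gate and library profiles were most like each member were named as a description, with the profiles sharing libraries and depth. Gzma was most like Klra3 (Pearson r = 0.95), Klrb1c and Eomes, all NK cell genes. Prf1 was most like Klre1 (0.93), Eomes and Ifitm10. Gzmb was most like Sytl3 (0.94), Gzmk most like Rgs16 (0.86), Nrgn and Ifng, and Gzmf most like Cd8a (0.74), Rgs16 and Ifng. Gzmc was most like Spry2 (0.88), Dapk2 and Wdr95. Gzmd was most like Serpinb9b (0.94), Adamts14 and Cma1, and Gzmg most like Adamts14 (0.85). Klrb1c, Klre1 and Cd8a were also used to set the gates, so likeness to them follows in part from how the profiles were made. The likeness was ranked among 6172 genes, and Gzme and Gzmm did not reach the minimum level for it.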

How the data were processed

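Droplet single-cell RNA-seq of CD45+ tumour leukocytes from 2 libraries, UDSP-Hep and PBS, was analysed. The deposited values are raw UMI counts per gene and barcode; per the submitters' processing notes they were made with Cell Ranger 7.0.0 on mm10, and Seurat is named without a version. The chemistry (3′ or 5′ capture) was not stated in the labels. The 10 genes were matched by symbol. The members and gene lists were chosen with earlier results of these data known.

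Limits of 200 genes and 500 UMIs as minimum and 10% mitochondrial UMIs as maximum removed 197 UDSP-Hep and 245 PBS barcodes. Scrublet as provided by scanpy 1.11.5 called 0% and 0.0138% doublets at its own threshold, too few to have worked. Instead 480 and 417 top-scoring barcodes, at a rate of 0.8% per 1000 barcodes recovered, were removed. Gates used marker UMIs and none of the 10 genes: T cell gates needed at least 2 UMIs of Cd3e, Cd3d and Cd3g and at least 1 of Cd8a or Cd8b1, Cd4, Foxp3 or Trdc. CD8 T cells had 0 UMIs of Cd4 and Foxp3, CD4 T cells 0 of Cd8 and Foxp3, Treg cells 0 of Cd8, and gamma-delta T cells 0 of Cd8, Cd4 and Foxp3. NK cells had at least 2 UMIs of Ncr1, Klrb1c, Klre1, Klra8 and Klra4 with at most 1 Cd3 UMI. Phagocyte and neutrophil markers had to stay under 0.5% of UMIs each, and B cell, basophil, eosinophil and plasmacytoid dendritic markers were limited too. These limits were revised after the data were seen, and the first limits are kept as an alternative. The gates do not come from an annotation by the authors.

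UMIs were summed per gate and library and given as CPM with exact Poisson intervals, ratios with exact conditional binomial intervals and shares with Clopper-Pearson intervals, all at 95% (scipy 1.17.1, numpy 2.4.6). UMIs come from 1 library per group, so intervals cover counting error only, and the deeper gates have the narrower ones. A member was counted with at least 20 summed UMIs and called higher or lower at a ratio of 1.5 in either direction, with no test. A gene at 0 was set to 3 UMIs. The ratio step was tested on simulated counts. Alternatives are given in the closing section. Other genes are named when past the limit in the NK or CD8 T gate, at most 4 per list with 6 fixed anchors, and by Pearson correlation of log2(CPM + 10), the 3 highest per member among genes with at least 50 CPM in a profile and 100 UMIs in all; not every gene this names is reported here. Coordinates are from GENCODE M21 on GRCm38 and promoters from RefSeq.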

Additional observations from a re-analysis of the deposited data

Results flagged for a closer look

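Gzma, Gzmb and Gzmk are listed because their counting intervals lay on opposite sides of 1 in different lymphocyte gates, so that the same comparison of UDSP-Hep with PBS pointed in different directions. With 1 library per group, the difference between the gates was not tested.

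For Gzma the ratio of UDSP-Hep over PBS was 3.66 in CD8 T cells, 10.4 in CD4 T cells and 1.60 in Treg cells, against 0.824 in NK cells and 0.810 in gamma-delta T cells. For Gzmb it was 1.88 in Treg cells and 1.73 in gamma-delta T cells, against 0.858 in NK cells, 0.878 in CD8 T cells and 0.828 in CD4 T cells. For Gzmk it was 2.96 in CD4 T cells and 0.856 in CD8 T cells. Not all of these directions held under other settings: the ratio of Gzmb in CD4 T cells turned to 1.67 with cells carrying marker UMIs of other lineages left out, that of Gzma in gamma-delta T cells ranged from 0.298 to 1.14, and that of Gzma in Treg cells from 0.216 to 2.27.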

How the results depend on the processing

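Of 507 ratios recomputed under another setting, 370 stayed within the counting interval of the main ratio and 128 moved beyond it. The other 9 turned direction, a label given only to ratios past the 1.5-fold limit in the main setting. Ratios within that limit that turned direction are among the 370 or the 128. The cause of these changes was not tested. The settings include a minimum of 50 summed UMIs and no minimum, which cannot change the ratio of a member still counted. Tallies of settings here and above therefore include outcomes fixed in advance. The Gzma ratio of UDSP-Hep over PBS stayed past the limit in CD8 T cells under 18 of 18 settings (3.26 to 5.46) and in CD4 T cells under 14 of 14 (6.06 to 21.4). The Gzmm ratio did so in CD8 T cells under 15 of 15 (3.53 to 7.41), the Gzmb ratio in gamma-delta T cells under 15 of 15 (1.60 to 4.29) and the Gzmb ratio in Treg cells under 14 of 15 (1.04 to 1.99). The Prf1 ratio did so in Treg cells under 8 of 15 settings (1.02 to 1.77) and in gamma-delta T cells under 9 of 14 (1.05 to 2.22). The Gzme ratio in NK cells stayed within the limit under 8 of 12 (0.0531 to 1.19), the Gzmb ratio in CD4 T cells under 12 of 14 (0.723 to 1.67) and the Gzma ratio in gamma-delta T cells under 12 of 14. The Gzma and Gzmb ratios in NK cells stayed within the limit under 14 of 14 settings each, and the Prf1 ratio in CD8 T cells under 18 of 18. The Gzmb ratio in CD8 T cells left the limit in 2 of 18, at 0.498 in cells with 0 NK marker UMIs and at 1.52 in cells without stem-like or memory marker UMIs.

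The counts of members past the limit were judged separately. A count moved when it changed by more than 1.5-fold or to or from 0. No share of all genes was computed under these settings, apart from CD8 T cells with 0 NK marker UMIs. The counts that moved are as follows. Thinned to 1000 UMIs, 1 was higher in NK, CD8 T, CD4 T, Treg and gamma-delta T cells each, 2 were lower in CD8 T, 0 in CD4 T and 1 in Treg cells, and the Treg Gzma ratio turned to 0.535. With every cell at the same weight, 4 were lower in CD8 T and 0 in CD4 T cells, 2 were higher in Treg cells, and Treg Gzma turned to 0.704. With cells carrying other lineages' marker UMIs left out, 0 were higher and 5 lower in NK cells with Gzmf at 0.618, 0 were lower in CD4 T cells, and 0 were higher and 1 lower in Treg cells with Gzma at 0.216. Under the first gate limits, 1 was higher and 4 lower in NK cells with Gzmf at 0.631, 0 were lower in CD4 T cells, and 1 was higher in Treg cells with Gzma at 0.907.

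Without the top 1% of cells by the member, 0 were higher and 0 lower in NK cells, 2 were lower in CD8 T cells with Gzmc at 0.499, 0 were lower in CD4 T cells, 1 was higher in Treg and 1 in gamma-delta T cells, and 2 in the myeloid gate. Without the single top cell, 0 were lower in CD8 T and CD4 T cells. In cells with 0 NK marker UMIs, 6 were lower in CD8 T cells with Gzmc at 0.402, beside 14.6% of genes lower there. In the same setting 2 were higher in Treg and 1 in gamma-delta T cells. In cells from clusters of the same lineage, 4 were lower in NK cells, 2 higher in Treg and 1 lower in gamma-delta T cells. Stricter gates left 0 lower in CD4 T and 1 lower in gamma-delta T cells. A minimum of 50 UMIs left 1 higher in NK cells, and 1 higher and 0 lower in CD4 T cells. No minimum gave 1 lower in Treg, 1 lower in gamma-delta T and 8 higher in myeloid cells. With doublets kept, 0 were lower in CD4 T cells and Prf1 turned to 1.38. The first gate limits, the single top cell and the 0 NK marker setting were chosen after seeing the data. So were the array-rich cells left out of cycling and noncycling CD8 T cells and the subtraction of the macrophage-monocyte level.

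No paired analysis was possible because each group had 1 library of combined tumours. Spread between mice is unknown here, and genes with few UMIs (Gzmm, Gzmk outside CD8 T cells, Prf1 in CD4 T cells) or with most UMIs in 1 cell in some gates (Gzmd, Gzme, Gzmf and Gzmg) had the least certain ratios.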

Other observations

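Gzmc was also seen outside lymphocytes. Basophils held 75 Gzmc UMIs in UDSP-Hep and 29 in PBS, or 241 CPM and 56.3 CPM, a ratio of 4.28 (2.75 to 6.81). Single cells held 28 and 24 of the UDSP-Hep UMIs and 16 of the PBS UMIs, and a Gzmc UMI was found in 10.7% of UDSP-Hep and 8.49% of PBS basophils. Their Gzma stood at 28.9 CPM and 5.82 CPM. Neutrophils held 52 Gzmc UMIs in UDSP-Hep and 0 in PBS, in 568 and 49 cells, and 49 of the 52 came from 1 cell.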
